A study of Mus musculus with 8 samples.

Results

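Type I interferon-stimulated effector genes encode the proteins that carry out the antiviral and immune program switched on by interferon alpha and beta. They were chosen by gene symbol, as effector proteins grouped into 9 roles, and 41 of the 54532 genes in the count table carried one of the symbols. The RNA came from tumors of 4T1-FLuc, a triple-negative breast cancer (TNBC) cell line of BALB/c mouse origin that carries firefly luciferase. The tumors were grown under the skin of immunocompetent female BALB/cJ mice, which were aged 6 weeks at implantation. The treated group received mAb-DXd/IMQ, named HumCD276-Dxd/IMQ in the labels, an antibody against CD276 that carries both DXd, an inhibitor of the topoisomerase TOP1, and IMQ, an imidazoquinoline agonist of TLR7 and TLR8. It was given in 5 courses spaced 4 days apart, each with 16 mg/kg through the tail vein. The control group received saline, which another label calls PBS. Each group held 4 tumors, separate tumors of different mice taken at the study endpoint, and the comparison asked how the RNA of treated tumors differed from that of controls.

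Libraries held 34591912 to 69582375 counts, and abundances were expressed as CPM, counts divided by library size after TMM scaling between libraries. A floor of 3 counts lay at 0.0431 to 0.0867 CPM, depending on the tumor, and covers counting error only. Markers of epithelial tumor cells were counted in all 8 tumors, with Krt18, the most abundant of the 6 by summed level, at 589.5 to 971 CPM. Among the receptors whose low levels define TNBC, Pgr had 0.161 to 0.808 CPM and Esr1 had 13.6 to 20.6 CPM, while Erbb2 had 74.3 to 118 CPM. All 41 effector genes passed the filter on low counts, and the lowest mean over saline tumors among them was 12.4 CPM, far above the floor.

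Type I interferons bind a receptor made of Ifnar1 and Ifnar2, whose kinases Jak1 and Tyk2 activate transcription factors such as Stat2. With Irf9 these bind interferon-stimulated response elements in the promoters of effector genes, whose products block viral replication, modify proteins with ISG15, or feed back on the pathway. Agonists of TLR7 induce type I interferon, for which plasmacytoid dendritic cells are a known source, and DNA damage can also start the pathway through cytosolic nucleic acid sensors.

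A core of that response element, GAAA followed by any 2 bases and GAAA again, was searched on both strands in promoters from RefSeq (GRCm38.p6), taken from 250 bases before to 50 bases after each transcription start. It occurred in 13 of the 30 effector genes with a promoter in that table (43.3%), against 1079 of 27025 genes of the table (3.99%). The GAS-type motif TTCNNNGAA, whose reverse complement has the same letters and which is known from targets of interferon gamma, occurred in 5 of the 30 (16.7%), against 9.55% of the genes of the table. Such a match describes the letters only. As examples, and not as a sample of the 9 roles, the promoters of 5 members are printed from 150 to 21 bases before the start. Promoters with the core are over-represented among them: those of Isg15, Ifit1, Bst2, and Rsad2 hold it and that of Ifi44l does not. Each runs 5′ to 3′ on the strand of its gene, and capitals mark the core or its reverse complement (TTTC, any 2 bases, and TTTC), with overlapping copies joined.
Isg15: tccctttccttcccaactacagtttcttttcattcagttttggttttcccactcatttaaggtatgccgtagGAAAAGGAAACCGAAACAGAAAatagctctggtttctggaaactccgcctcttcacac
Ifit1: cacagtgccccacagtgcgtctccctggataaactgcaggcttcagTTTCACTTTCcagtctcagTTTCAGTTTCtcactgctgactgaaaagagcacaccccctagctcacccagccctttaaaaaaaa
Bst2: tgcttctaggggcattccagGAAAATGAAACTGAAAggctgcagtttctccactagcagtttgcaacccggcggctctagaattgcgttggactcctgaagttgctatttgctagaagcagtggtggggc
Rsad2: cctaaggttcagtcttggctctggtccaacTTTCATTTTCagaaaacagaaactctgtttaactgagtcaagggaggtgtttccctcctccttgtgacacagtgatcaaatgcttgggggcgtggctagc
Ifi44l: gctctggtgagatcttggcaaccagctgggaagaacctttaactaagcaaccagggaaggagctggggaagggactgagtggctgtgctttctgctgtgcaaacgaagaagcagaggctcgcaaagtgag

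The stretch of Isg15 lies at chr4:156200839-156200968 on the minus strand and holds 3 overlapping copies of the core, which begin 78, 72, and 66 bases before the start. That of Ifit1, at chr19:34640739-34640868 on the plus strand, holds 2 separate copies at 104 and 85 bases before the start. In Bst2 (chr8:71537493-71537622, minus strand), 2 overlapping copies begin at 130 and 124 bases, and in Rsad2 (chr12:26456473-26456602, minus strand) a single copy begins at 120 bases before the start. The stretch of Ifi44l, at chr3:151762912-151763041 on the minus strand, holds no copy, nor does its whole 300-base window. The median log2 fold change between mAb-DXd/IMQ and saline tumors was 0.41 for the 13 genes with the core and 0.49 for the 17 genes whose promoters lacked it. Usp18, Mx1, Mx2, Parp9, Parp10, Parp14, Ifi27, Ifi27l2a, Ifi204, Rtp4, and Tor3a had no entry in the promoter table.

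Most effector genes had higher values in mAb-DXd/IMQ tumors, and 1 of them, Ifi44l, rose past both thresholds. The log2 fold change was positive for 39 of the 41 genes and negative for 2 (Ifi47 and Dtx3l), and over the alternatives the number of positive genes lay between 36 (without saline tumor 2) and 40 (without saline tumor 1 and with upper-quartile scaling, which moves all genes alike). Their median log2 fold change was 0.48, while the median over all 18511 tested genes was 0.02 and 52.6% of tested genes were positive. Ifi44l was the only member with both an edgeR false discovery rate (FDR, adjusted by Benjamini-Hochberg over all tested genes) under 0.05 and a log2 fold change of more than 0.58 in size, thresholds that 1.06% of tested genes passed in either direction and 0.546% passed as higher. At an unadjusted p under 0.05, 18 of the 41 genes were higher and 0 were lower in edgeR, against 9.13% of tested genes that were higher and 9.79% that were lower.

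For 12 of the 41 genes, or 29.3%, 4 of 4 mAb-DXd/IMQ tumors lay above every saline tumor. This separation occurred in 5.97% of tested genes, and the opposite one, which no member showed, in 7.10%. Without saline tumor 1, 26 members were separated in this way, against 8.19% of tested genes. Without that tumor 3 members passed both thresholds (Ifi44l, Isg15, and Ifi35), among 203 genes in all. Without saline tumor 4 or mAb-DXd/IMQ tumor 4, 0 members passed in edgeR, where only 11 and 12 genes of any kind did. By method, the genes past both thresholds included 7 members of 810 genes in DESeq2, 4 of 358 in edgeR without the filter on low counts, and 1 of 174 in limma-voom, where edgeR with the filter had 1 of 197.

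**Figure D1:**
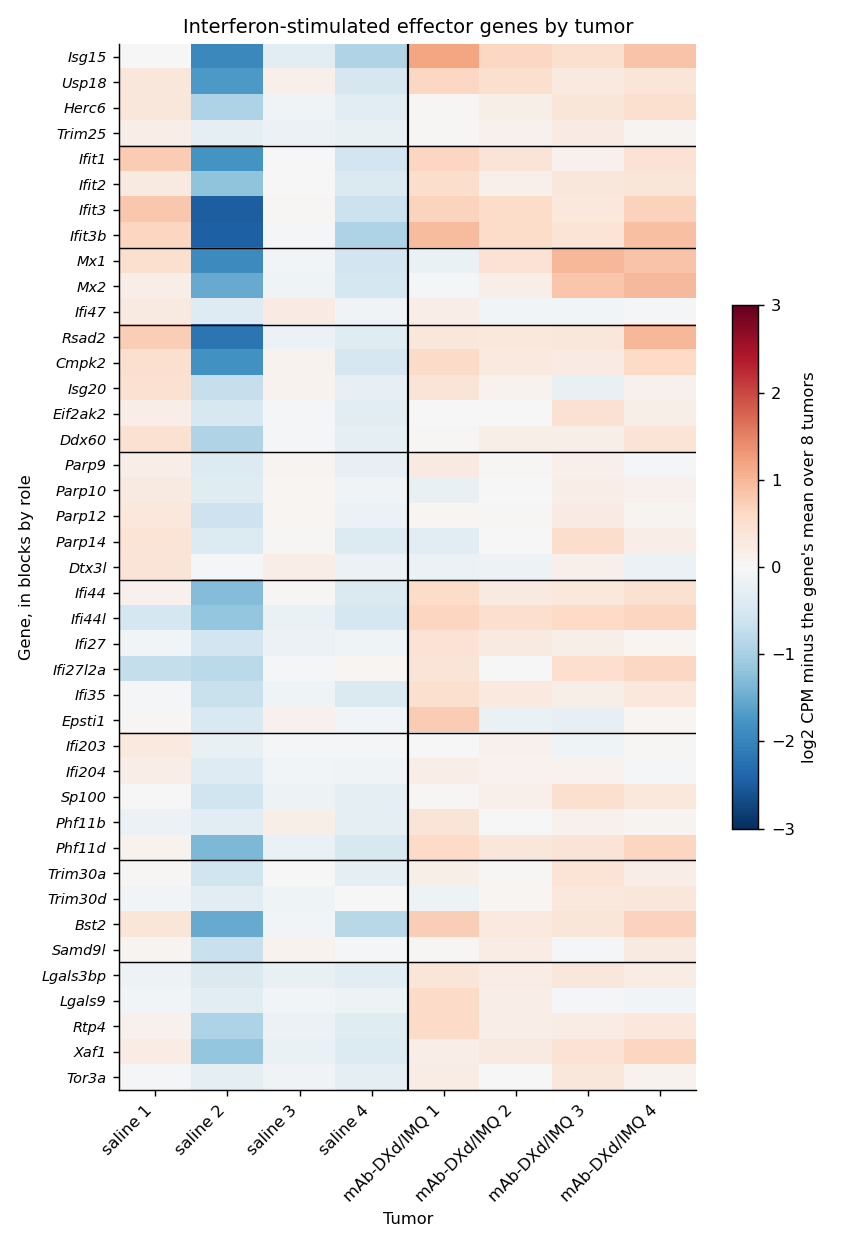
Heat map of the 41 effector genes (vertical axis, in blocks by role) in the 8 tumors (horizontal axis). Color gives log2 CPM minus the mean of the gene over the 8 tumors, and the column of saline tumor 2 holds the lowest value of 39 of the 41 genes.

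The genes of ISG15 conjugation attach the ubiquitin-like protein ISG15 to other proteins or remove it. Isg15 itself (ENSMUSG00000035692, chr4:156199424-156200818, minus strand) encodes the modifier, which is also secreted. Its levels were 86.9, 22.5, 69.3, and 46.2 CPM in saline tumors 1 to 4 and 198, 133, 121, and 157 CPM in mAb-DXd/IMQ tumors 1 to 4, the order used for all values that follow. Every treated tumor was above every saline tumor, and saline tumor 2 was the lowest of the 8. The group means were 56.2 ± 28 CPM and 152 ± 34.2 CPM (SD, n = 4 tumors each). The log2 fold change of 1.44 (SE 0.34) was the largest among the 41 genes and missed the FDR threshold in edgeR (FDR = 0.0591, unadjusted p = 0.00131). It passed in DESeq2 (FDR = 0.000441), without the filter on low counts (edgeR FDR = 0.0172), and without saline tumor 1 (edgeR FDR = 0.0414), while over all 18 alternatives its FDR ran from 0.000441 to 0.179.

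Trim25, an E3 ligase that activates the RNA sensor RIG-I, had 213, 151, 165, and 159 CPM in saline tumors and 190.1, 202, 219.5, and 197 CPM in mAb-DXd/IMQ tumors. The groups overlapped, since saline tumor 1 exceeded 3 of the treated tumors, and the log2 fold change was 0.23 (SE 0.13, edgeR FDR = 0.346). It was 0.35 without saline tumor 1. Usp18, the protease that removes ISG15 and dampens the interferon receptor, had a log2 fold change of 0.70, and Herc6, the main ISG15 ligase of mice, had 0.46. Both had overlapping groups, and without saline tumor 2 they were at 0.41 and 0.27. Of the 100-base windows in Herc6 transcripts, 10.3% also occur in another annotated gene, so its counts are less certain.

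The IFIT proteins bind viral RNA that lacks the marks of host messenger RNA and block its translation. Their genes lie together on chromosome 19 between positions 34550694 and 34650009. Ifit2 had 85.1, 30.2, 69.9, and 52.4 CPM in saline tumors and 103, 79.1, 88.9, and 91.04 CPM in mAb-DXd/IMQ tumors, with a log2 fold change of 0.61 (SE 0.25, edgeR FDR = 0.225). Of the treated tumors, 3 were above all saline tumors, while mAb-DXd/IMQ tumor 2 was below saline tumor 1. Ifit3 had 86.9, 8.51, 50.4, and 31.3 CPM and 78.96, 72.8, 61.6, and 79.9 CPM in the same order, a log2 fold change of 0.73 (SE 0.49, edgeR FDR = 0.451). Its saline tumors spanned more than its whole treated group: saline tumor 1 was the highest of the 8 and saline tumor 2 the lowest. Ifit1 had 83.7, 13.9, 49.2, and 32.9 CPM and 76.4, 63.7, 53.5, and 65.99 CPM, a log2 fold change of 0.53 (SE 0.40, edgeR FDR = 0.508). Here too saline tumor 1 was the highest and saline tumor 2 the lowest, so the difference in means was smaller than the spread among saline tumors. Without saline tumor 2 the log2 fold changes of Ifit2, Ifit3, and Ifit1 were 0.39, 0.38, and 0.23, and without saline tumor 1 those of Ifit3 and Ifit1 were 1.28 and 1.02.

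Ifit3b, a near copy of Ifit3, had a log2 fold change of 1.05, which was 1.604 without saline tumor 1 and 0.71 without saline tumor 2. Because 31.7% of the 100-base windows of Ifit3 and 27.4% of those of Ifit3b occur in the other gene, the division of counts between them is uncertain. The SD of log2 values among saline tumors was 1.40 for Ifit3, 1.33 for Ifit3b, and 1.08 for Ifit1, against 0.172, 0.263, and 0.209 among treated tumors. Of the 9 roles, the IFIT family had the highest median of this spread in saline tumors, 1.21. In the plot of values by tumor, Ifit2 shows it as a wide column of saline points beside a tight column of treated points.

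**Figure D2:**
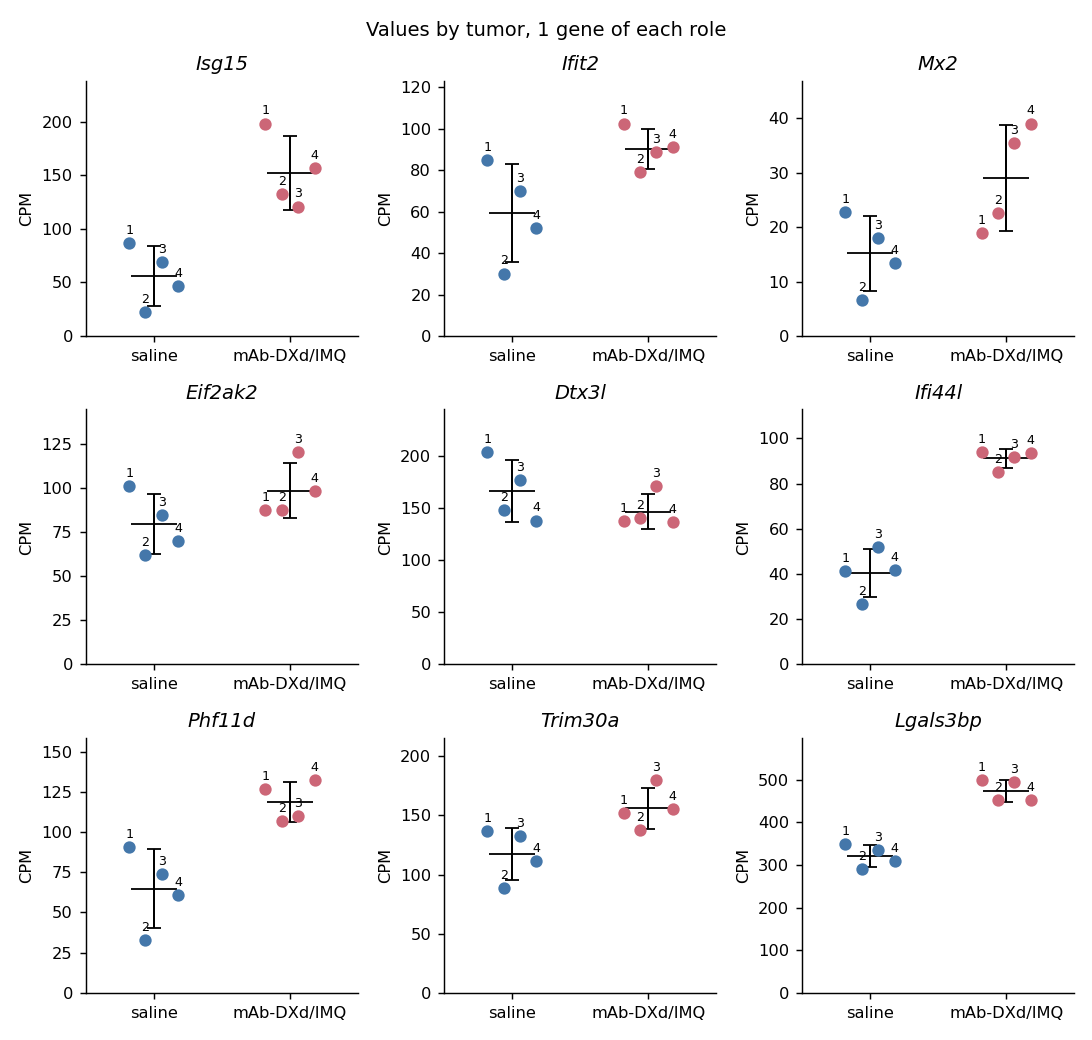
Abundance (CPM, vertical axis) of 9 effector genes, 1 of each role, in the saline and mAb-DXd/IMQ groups (horizontal axis), with 1 point per tumor, its tumor number beside it, and the group mean and SD. Ifi44l has 26.6 to 52.0 CPM in saline tumors and 85.2 to 94.0 CPM in treated tumors, whereas the groups of Mx2 and Dtx3l overlap.

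The dynamin-like GTPases Mx1 and Mx2 trap viral nucleocapsids, and Ifi47 is an immunity-related GTPase that acts at membranes. Most inbred mouse strains are known to carry a disrupted Mx1, and Mx2 is annotated as a polymorphic pseudogene in the count table, so these values describe RNA only. Mx2 had 22.9, 6.64, 17.97, and 13.5 CPM in saline tumors and 18.9, 22.7, 35.5, and 39.1 CPM in mAb-DXd/IMQ tumors. Treated tumors 3 and 4 were above all saline tumors, and treated tumors 1 and 2 were within their range. Its log2 fold change was 0.93 (SE 0.34, edgeR FDR = 0.179), and that of Mx1 was 0.90 (SE 0.42). Ifi47 had 287, 182, 286, and 223 CPM and 275, 225, 224, and 231 CPM, with its treated tumors inside the range of its saline tumors. Its log2 fold change of -0.033 (SE 0.16, edgeR FDR = 0.938) was one of 2 negative values among the members, and it was 0.012 with upper-quartile scaling, 0.051 without saline tumor 1, and 0.049 without saline tumor 3.

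Enzymes that act on nucleotides and RNA include Eif2ak2, the kinase PKR, which stops translation when it binds double-stranded RNA. Its levels were 101, 62.1, 84.7, and 69.9 CPM in saline tumors and 87.6, 87.2, 120.2, and 98.2 CPM in mAb-DXd/IMQ tumors. Only mAb-DXd/IMQ tumor 3 exceeded every saline tumor, and the log2 fold change was 0.31 (SE 0.16, edgeR FDR = 0.335). Without that treated tumor it was 0.20. Isg20, an exonuclease that degrades RNA, had 60.1, 26.8, 46.8, and 36.5 CPM and 56.9, 46.7, 36.9, and 47.4 CPM, and its treated tumors lay within the saline range. Its log2 fold change was 0.14 (SE 0.22, edgeR FDR = 0.775) and turned to -0.025 without saline tumor 2.

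Rsad2 (viperin), whose product makes a chain-terminating nucleotide, lies on chromosome 12 close to Cmpk2, which supplies its substrate. Its levels were 59.4, 7.38, 31.5, and 27.2 CPM in saline tumors and 44.99, 43.9, 44.7, and 71.5 CPM in mAb-DXd/IMQ tumors, a case chosen after the values were seen because its promoter is printed. Among treated tumors, tumor 4 stood above the others by 0.959 of their range. Saline tumors spread from the lowest to the second highest of the 8 values, and the log2 fold change was 0.71 (SE 0.45, edgeR FDR = 0.429). Without saline tumor 2 it was 0.38, and without saline tumor 1 it was 1.21. Cmpk2 had a log2 fold change of 0.65, and Ddx60, a helicase that promotes RNA sensing, had 0.33. Without saline tumor 2 these were 0.35 and 0.14, and without saline tumor 1 they were 0.98 and 0.58. In this role 0 of 5 genes had an unadjusted p under 0.05 in edgeR, against 9.13% of tested genes as higher and 9.79% as lower.

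The PARP family and Dtx3l modify proteins with ADP-ribose or ubiquitin, and Parp9 and Dtx3l form a complex. Of these 5 genes, 0 reached an unadjusted p under 0.05 in edgeR, against 9.13% of tested genes as higher and 9.79% as lower. The 5 had the lowest median log2 fold change of the 9 roles, 0.18. Their middle value was 0.028 (Parp12) without saline tumor 2 and 0.28 (Parp9) without saline tumor 1. Dtx3l had 204, 148, 177, and 138 CPM in saline tumors and 138, 141, 172, and 137 CPM in mAb-DXd/IMQ tumors. Apart from mAb-DXd/IMQ tumor 3, its treated tumors lay close together near the lowest saline values, and the log2 fold change was -0.19 (SE 0.14, edgeR FDR = 0.513). It was -0.076 without saline tumor 1. Parp12, which blocks translation of viral RNA, had 226, 118, 189, and 159 CPM and 189, 186, 216, and 191 CPM. All its treated tumors lay inside the saline range, and the log2 fold change was 0.18 (SE 0.17, edgeR FDR = 0.627). It was 0.028 without saline tumor 2 and 0.33 without saline tumor 1.

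Of the remaining PARP genes, Parp9 had a log2 fold change of 0.18, Parp14 of 0.18, and Parp10 of 0.059. Parp10 turned to -0.042 without saline tumor 2 and to -0.0028 without mAb-DXd/IMQ tumor 3. Without single tumors Parp9 ranged from 0.075 (saline tumor 2) to 0.28 (saline tumor 1) and Parp14 from 0.020 (mAb-DXd/IMQ tumor 3) to 0.37 (saline tumor 1). Parp9 and Dtx3l overlap on opposite strands of chromosome 16, and the counts of Parp9 were 93.7% of those of Dtx3l over the 8 tumors. Because it is not known whether the counting used strand, reads from their shared stretch cannot be assigned with certainty. Parp10 overlaps Plec on its own strand, and Plec had 561% of its counts.

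The group of IFI44 and IFI27 type proteins held the only member past both thresholds. Ifi44l (ENSMUSG00000039146, chr3:151758737-151762892, minus strand) encodes a protein related to IFI44, and both genes lie close together on chromosome 3. It had 41.5, 26.6, 52.02, and 41.6 CPM in saline tumors and 93.96, 85.2, 91.6, and 93.6 CPM in mAb-DXd/IMQ tumors. The lowest treated value was above the highest saline value, and the treated tumors lay close together. Ifi44l rose from 40.4 ± 10.5 CPM to 91.1 ± 4.08 CPM (SD, n = 4 tumors each), which was 2.25-fold. Its log2 fold change was 1.17 (SE 0.17, edgeR FDR = 0.0201). The call was kept in 15 of 18 alternatives, with FDR between 3.18e-07 and 0.0846. It was lost without saline tumor 4 (edgeR FDR = 0.0846), without mAb-DXd/IMQ tumor 4 (edgeR FDR = 0.0694), and with a replicate block (edgeR FDR = 0.0553).

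Ifi27, which encodes a small mitochondrial membrane protein, had 232, 163, 217, and 222 CPM in saline tumors and 332, 296, 278, and 254 CPM in mAb-DXd/IMQ tumors. The groups did not overlap, and the log2 fold change was 0.48 (SE 0.14, edgeR FDR = 0.102). The nearby Ifi27l2a had a log2 fold change of 0.73, Ifi44 of 0.69, and Ifi35, which binds the regulator NMI, of 0.63. Epsti1, an epithelial and stromal interferon target, had 42.2, 30.1, 45.5, and 38.8 CPM and 70.3, 36.1, 34.6, and 43.1 CPM. Its value in mAb-DXd/IMQ tumor 1 stood above the other 7, which overlapped. Without that tumor its log2 fold change of 0.23 (SE 0.22, edgeR FDR = 0.605) turned to -0.047. In this role 5 of 6 genes had an unadjusted p under 0.05 as higher in edgeR and 4 of 6 had separated groups. Over all tested genes these shares were 9.13% and 5.97%.

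Among nuclear proteins, Phf11d, a PHD finger protein, had 90.95, 32.9, 74.1, and 61.1 CPM in saline tumors and 127, 107, 110.2, and 132 CPM in mAb-DXd/IMQ tumors. Each treated tumor exceeded each saline tumor, and the log2 fold change was 0.88 (SE 0.24, edgeR FDR = 0.0929). Its FDR was 0.0129 in DESeq2 and 0.0489 in edgeR without the filter on low counts. Ifi204 and Ifi203 encode PYHIN proteins, which bind DNA, and lie on chromosome 1. Ifi204 had 220.1, 146, 180.2, and 176 CPM and 218, 205, 205, and 186 CPM, with saline tumor 1 above all treated tumors and the remaining saline tumors below them. For Ifi204 the log2 fold change was 0.17 (SE 0.13, edgeR FDR = 0.510). It was 0.082 without saline tumor 2 and 0.28 without saline tumor 1. Ifi203 had 377, 261, 298, and 297 CPM and 310, 334, 282, and 313 CPM, with overlapping groups.

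For Ifi203 the log2 fold change was 0.0068 (SE 0.13, edgeR FDR = 0.986), close to 0, and its sign turned in 5 of the alternatives, as listed with the effects of processing. Ifi203 overlaps Mndal, a related gene on the same strand whose counts were 47.6% of its own. Ifi204 shares 10.7% of its 100-base windows with other genes and Phf11b shares 13.8%, so these values carry that uncertainty. Phf11b had a log2 fold change of 0.31 and Sp100, a component of nuclear bodies, had 0.49.

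Trim30a restrains inflammatory signaling, and Bst2 (tetherin) holds budding virus particles at the cell surface. Trim30a had 137, 88.7, 132, and 112 CPM in saline tumors and 152, 138, 179.6, and 155 CPM in mAb-DXd/IMQ tumors. The lowest treated value was just above the highest saline value, and the log2 fold change was 0.41 (SE 0.15, edgeR FDR = 0.166). Bst2 (ENSMUSG00000046718, chr8:71534255-71537456, minus strand) had 625, 170, 458, and 272 CPM and 813, 600.1, 624, and 781 CPM. The groups overlapped through saline tumor 1, whose value was above those of mAb-DXd/IMQ tumors 2 and 3. For Bst2 the log2 fold change was 0.89 (SE 0.33, edgeR FDR = 0.179), and its FDR was 0.0499 in DESeq2. Samd9l, an inhibitor of translation, had 164, 95.95, 166, and 151 CPM and 159, 180, 149.6, and 187 CPM. Of its treated tumors, 2 lay within the saline range, and the log2 fold change was 0.23 (SE 0.17, edgeR FDR = 0.504). For Samd9l that value was 0.070 when saline tumor 2 was left out. Trim30d had a log2 fold change of 0.30.

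The last role joins galectin-related proteins with a chaperone, an apoptosis factor, and an ATPase. Lgals3bp (ENSMUSG00000033880, chr11:118392751-118402092, minus strand), a secreted glycoprotein that binds galectins, had 349, 289.9, 335, and 310.2 CPM in saline tumors and 498, 452, 496, and 453 CPM in mAb-DXd/IMQ tumors. All treated tumors were far above all saline tumors, with little spread in either group. Its log2 fold change of 0.56 (SE 0.11, edgeR FDR = 0.0403) passed the FDR threshold but lay just under the fold change limit of 0.58. With upper-quartile scaling it was 0.61, and with scaling by library size alone it was 0.60, both past the limit. The FDR threshold itself was met in 9 of 18 alternatives. It was missed with gene length offsets (FDR = 0.0821), with a replicate block (0.112), and in 7 of 8 fits lacking a tumor: without saline tumors 1 to 4 (0.0515, 0.0978, 0.108, and 0.152) and mAb-DXd/IMQ tumors 2 to 4 (0.0751, 0.0628, and 0.0899). Lgals9, a galectin with both immune activating and inhibitory roles, had 161, 138, 162, and 153 CPM and 256, 195, 165, and 162 CPM. Its treated tumor 4 and saline tumor 3 were equal to within rounding, and the separation of the groups rests on that margin. The log2 fold change of Lgals9 was 0.34 (SE 0.15, edgeR FDR = 0.248). It was 0.18 without mAb-DXd/IMQ tumor 1.

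Rtp4, a chaperone of receptors, had a log2 fold change of 0.63, and 9.28% of its 100-base windows occur in another gene. Xaf1, a promoter of apoptosis, had 0.71, and the ATPase Tor3a had 0.34. All 5 genes of this role were higher at an unadjusted p under 0.05 in edgeR, and 4 of 5 had groups without overlap, against 9.13% and 5.97% of all tested genes. Taking every role together, the 19 members that had neither the smallest p, nor the highest level per length, nor the lowest fold change of their role (the rule by which the others were picked) had log2 fold changes between 0.059 (Parp10) and 1.05 (Ifit3b) and edgeR FDR between 0.0588 and 0.871.

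Apart from the genes given in full, 5 members had groups without overlap, and their values are added as a choice made after they were seen. Ifi44 had 279, 102, 263, and 188 CPM in saline tumors against 375, 306, 316, and 348 CPM with mAb-DXd/IMQ, and saline tumor 1 came closest to the treated group. Ifi35 had 51.2, 32.6, 47.6, and 38.7 CPM and 73.02, 64.6, 59.7, and 65.4 CPM (SE of its log2 fold change 0.14, edgeR FDR = 0.0588). Among the members its unadjusted p was the smallest after those of Ifi44l and Lgals3bp. Sp100 had 134, 86.7, 119.6, and 110.4 CPM and 137, 147, 184, and 164 CPM, with mAb-DXd/IMQ tumor 1 just above saline tumor 1. Rtp4 had 99.04, 46.9, 80.4, and 70.1 CPM and 135, 104, 106, and 112 CPM, and mAb-DXd/IMQ tumor 2 came closest to saline tumor 1. Tor3a had 102, 85.7, 97.3, and 85.8 CPM and 122, 104, 132, and 112 CPM, and its groups were divided by a margin smaller than the spread within either.

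**Figure D3:**
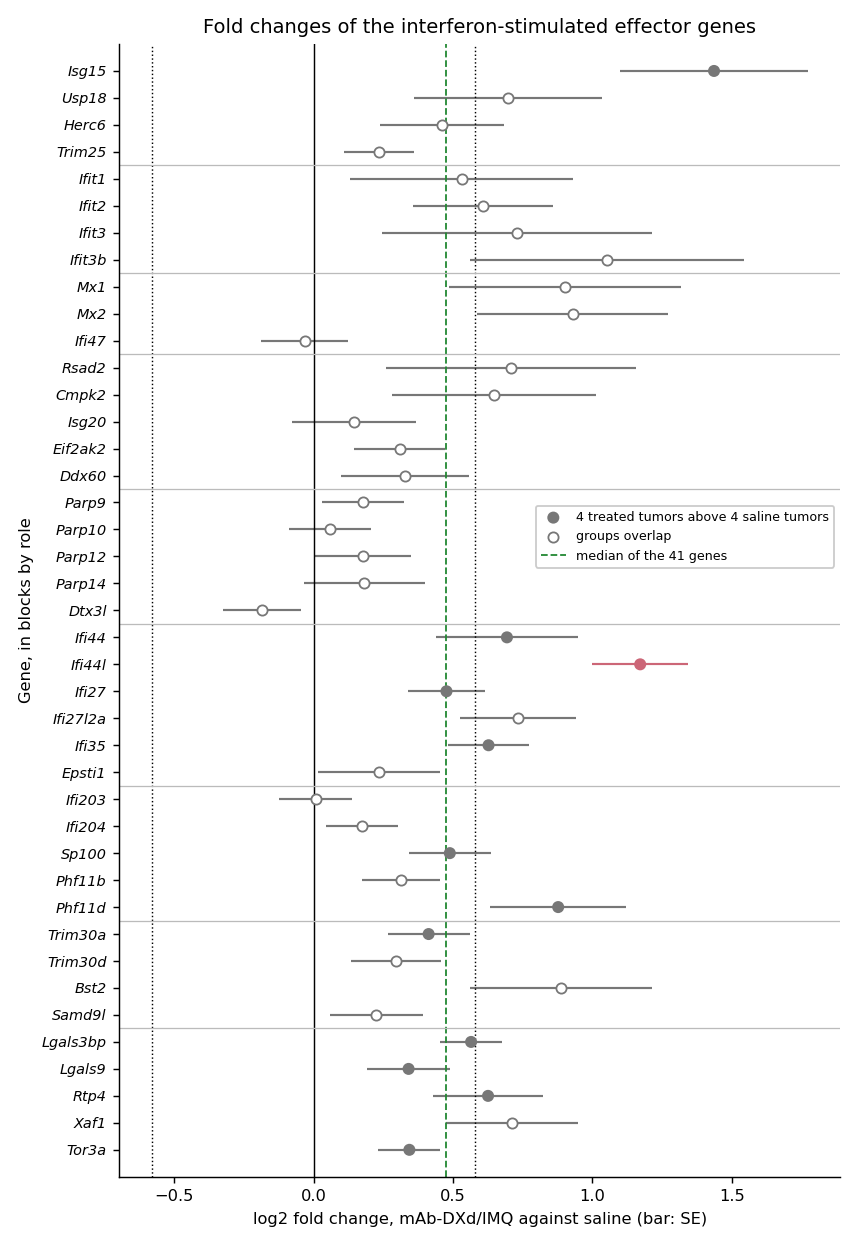
Log2 fold changes of mAb-DXd/IMQ against saline tumors (horizontal axis, bars show SE) for the 41 effector genes (vertical axis, in blocks by role), with the limits of 0.58 in either direction dotted and the median of 0.48 dashed. Filled points mark the 12 genes whose groups do not overlap, and Ifi44l, in red, passed both thresholds.

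Levels between genes were compared per kilobase of gene length. Bst2 had the highest level of the 41 genes, 422 CPM per kb in saline and 780.3 CPM per kb in mAb-DXd/IMQ tumors. In saline tumors Ifi27 (142), Ifi27l2a (124), Lgals3bp (113), and Ifi47 (98.8) followed, and Isg15 had 74.4 CPM per kb. In treated tumors the order was Ifi27l2a (207), Isg15 (201), Ifi27 (197), and Lgals3bp (167). Over the 8 tumors Trim30d had the lowest level, 3.66 CPM per kb, the median member had 27.4 CPM per kb and the median tested gene had 3.93 CPM per kb, a value that 40 of the 41 members exceeded.

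The members varied more among saline tumors than among treated tumors. The SD of log2 values was larger in the saline group for 37 of the 41 genes (90.2%), against 34.7% of tested genes. This was not particular to the members, since it also held for 9 of 9 tested genes of the OAS family, 17 of 18 GBP and IRG genes, and 10 of 10 macrophage and monocyte markers. Its median over the members was 0.40 in saline and 0.17 in mAb-DXd/IMQ tumors, while over all tested genes it was 0.19 and 0.26. Saline tumor 2 had the lowest value of the 8 tumors for 39 of the 41 members, against 14.4% of tested genes. The mean log2 CPM of the members was 5.57 in that tumor, 6.18 to 6.71 in the other saline tumors, and 6.71 to 6.87 in treated tumors. Their spread among saline tumors was not computed without saline tumor 2. Saline tumor 1 had the highest value of the saline group for 34 of the 41, against 31.6% of tested genes.

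Averaged over the 41 genes, log2 CPM was 6.71, 5.57, 6.48, and 6.18 in saline tumors 1 to 4 and 6.83, 6.71, 6.80, and 6.87 in mAb-DXd/IMQ tumors 1 to 4. Saline tumor 1 reached the treated level, and saline tumors 3, 4, and 2 followed at growing distance. The group means were 6.23 ± 0.49 and 6.80 ± 0.07 (SD, n = 4 tumors each), a difference of 0.57, which was 0.34 without saline tumor 2. Without that tumor the median log2 fold change of the members was 0.30, and 36 of 41 were positive. Leaving out 1 tumor moved the log2 fold change by more than 1.5 times, or turned its sign, in 18 members for saline tumor 2, in 16 for saline tumor 1, and in 2 to 8 for each of the others. All 41 log2 fold changes had lower signed values without it, of which 38 were also smaller in size, Ifi44l was again the only member past both thresholds (log2 fold change 1.01, edgeR FDR = 0.0118), and Isg15 had 1.17.

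The order of the tumors differed by role. For the IFIT family, mean log2 CPM was 6.07, 3.47, 5.44, and 4.81 in saline tumors and 6.15, 5.86, 5.75, and 6.04 in mAb-DXd/IMQ tumors, so that saline tumor 1 lay above 3 of the 4 treated tumors and saline tumor 2 far under all others. For the PARP family and Dtx3l it was 7.59, 6.90, 7.36, and 7.05 in saline and 7.20, 7.26, 7.53, and 7.30 in mAb-DXd/IMQ tumors, where saline tumor 1 was the highest of the 8. For the IFI44 and IFI27 type proteins it was 6.33, 5.70, 6.46, and 6.27 in saline and 7.07, 6.72, 6.78, and 6.88 in mAb-DXd/IMQ tumors, and here all saline tumors were below all treated tumors. The galectin, chaperone, and apoptosis proteins, at 7.16, 6.52, 6.99, and 6.84 and 7.53, 7.32, 7.41, and 7.38, were separated in the same way. ISG15 conjugation (saline tumors up to 6.76, treated tumors from 6.88) was also separated, as were the nuclear proteins (6.95 and 7.01). So was the role of Trim30a, Bst2, and Samd9l (6.87 and 6.93). The groups of the Mx and IRG GTPases and of the nucleotide and RNA enzymes overlapped.

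**Figure D4:**
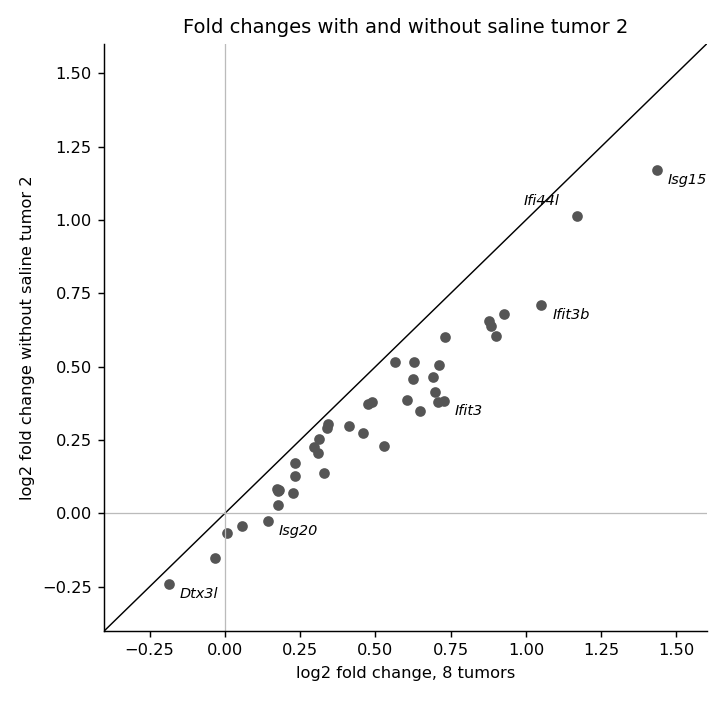
Log2 fold change of each of the 41 effector genes with 8 tumors (horizontal axis) and without saline tumor 2 (vertical axis), with the line of equal values. All 41 points lie under the line, and Ifi44l and Isg15 keep log2 fold changes of 1.01 and 1.17.

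The genes that make, receive, and pass on the interferon signal were compared as a list of 54. Of these, 34 were tested, 13 with positive and 21 with negative log2 fold changes, and the median was -0.09, or -0.04 without saline tumor 1 and also without saline tumor 2. In edgeR and in limma-voom 0 of the 34 passed both thresholds, and at an unadjusted p under 0.05 in edgeR, 5 were higher and 7 were lower, against the 9.13% and 9.79% of all tested genes. DESeq2, which tested 45, placed 3 past both thresholds, Irf7 and Rigi as higher and Ifng as lower. The groups were separated for 5 as higher and 3 as lower (14.7% and 8.82%, against 5.97% and 7.10% of all tested genes).

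Among ligands, the 14 interferon alpha genes together had 21 counts in the 8 tumors, 4 in saline and 17 in mAb-DXd/IMQ tumors, and 9 of them had no count. All 4 saline counts came from tumor 3, so that 0 remained without it, and treated tumors 1 to 4 had 4, 5, 8, and 0, with 9 left without treated tumor 3. Ifnb1, which encodes interferon beta, had 15, 0, 11, and 14 counts in saline tumors and 4, 5, 4, and 10 counts in mAb-DXd/IMQ tumors. Of the 21 ligand genes on the list, 20 had too few counts to be tested in edgeR. Ifng, the type II interferon made by T and NK cells, had 2.94, 1.87, 2.87, and 1.57 CPM and 1.22, 1.26, 0.633, and 1.46 CPM. Every treated tumor was below every saline tumor, and the log2 fold change was -1.02 (SE 0.34, edgeR FDR = 0.145).

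The receptor subunit Ifnar2 had a log2 fold change of -0.22 (edgeR FDR = 0.473), and Ifngr1, a subunit of the interferon gamma receptor, had 0.057 (edgeR FDR = 0.907). Tyk2, a kinase bound to the type I receptor, had 76.8, 79.6, 70.9, and 78.3 CPM in saline tumors and 45.7, 64.1, 54.1, and 60.6 CPM in mAb-DXd/IMQ tumors. All treated values were below all saline values, and the log2 fold change was -0.44 (SE 0.12, edgeR FDR = 0.0824). Jak2, which serves the interferon gamma receptor, had a log2 fold change of -0.45 (SE 0.18, edgeR FDR = 0.214). Stat2 and Irf9, which act together at the response element, had -0.022 and 0.075, each smaller than its SE.

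Irf7, the regulator that amplifies interferon production and is itself induced by interferon, had 173, 55.2, 143, and 119 CPM in saline tumors and 279, 249, 287, and 272 CPM in mAb-DXd/IMQ tumors. The groups were far apart, and again saline tumor 2 was the lowest. Its log2 fold change was 1.15 (SE 0.27) and missed the FDR threshold (edgeR FDR = 0.0591). Irf1, a regulator that answers interferon gamma strongly, had a log2 fold change of -0.094 (SE 0.15, edgeR FDR = 0.785). Its sign depends on saline tumor 1, since saline tumors had 408.5, 283.9, 346.5, and 256.2 CPM, against a treated mean of 303.5 CPM.

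Rigi, the sensor of viral RNA, had 96.04, 55.1, 90.9, and 80.8 CPM in saline tumors and 106, 121, 142, and 119 CPM in mAb-DXd/IMQ tumors. All treated values were above all saline values, and the log2 fold change was 0.60 (SE 0.17, edgeR FDR = 0.0947). Zbp1, a sensor of Z-form nucleic acids, had a log2 fold change of 0.36 (SE 0.23, edgeR FDR = 0.429). That value depends on single saline tumors, which had 202.8, 81.0, 145, and 114.4 CPM, against 161.1 to 198.5 CPM in treated tumors. Of the receptors that IMQ engages, Tlr7 had -0.20 (SE 0.38, edgeR FDR = 0.823) and Tlr8 had -0.92 (SE 0.34, edgeR FDR = 0.183). The value of Tlr7 depends on single saline tumors, which had 4.56, 21.5, 10.9, and 12.8 CPM, against a treated mean of 10.8 CPM. Tlr8 had 7.34, 33.3, 19.1, and 20.6 CPM in saline tumors, against 9.89 to 11.4 CPM in treated tumors. For Tlr8, saline tumor 1 was below all treated tumors, and the other saline tumors were above them.

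Pias1, an inhibitor of the pathway, had 52.6, 58.2, 53.6, and 53.2 CPM in saline tumors and 38.1, 39.8, 36.3, and 35.9 CPM in mAb-DXd/IMQ tumors. The groups were well separated with treated tumors lower, and the log2 fold change of -0.54 (SE 0.093, edgeR FDR = 0.0277) passed the FDR threshold but not the fold change limit. That threshold was missed without saline tumors 2 to 4 (edgeR FDR = 0.0651, 0.0839, and 0.108) and without mAb-DXd/IMQ tumors 2 to 4 (0.0600, 0.0546, and 0.0899), with gene length offsets (0.0576), and with a replicate block (0.105). Socs3, an inhibitor of cytokine receptors, had a log2 fold change of -0.35 (SE 0.16, edgeR FDR = 0.255). Its size depends on saline tumor 1, which had 194.7 CPM. The other saline tumors had 119.9 to 137.7 CPM and treated tumors 99.05 to 132.4 CPM.

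A further 2 families of interferon-induced genes were set beside the members. The OAS family, whose enzymes make a nucleotide messenger when they bind double-stranded RNA, was counted as 12 genes, of which 9 were tested. Saline tumor 2 was the lowest of the 8 for all 9, and the difference between groups in their mean log2 CPM was 0.92, or 0.61 without that tumor. All 9 had positive log2 fold changes with a median of 0.78 (0.47 without that tumor), and 2 rose past both thresholds in edgeR and in limma-voom. In DESeq2, which tested all 12, 4 did so (Oas1a, Oas1g, Oas2, and Oasl1). Oas2 had 81.8, 28.1, 92.5, and 78.3 CPM in saline tumors and 139, 211, 251, and 302 CPM in mAb-DXd/IMQ tumors (log2 fold change 1.69, SE 0.34, edgeR FDR = 0.0427). Oasl1 had 37.1, 13.9, 35.4, and 24.6 CPM and 72.1, 59.7, 61.4, and 63.1 CPM (log2 fold change 1.21, SE 0.25, edgeR FDR = 0.0458). In both genes every treated tumor was above every saline tumor. Of 18 alternatives, Oas2 passed in 9 (FDR 1.05e-05 to 0.134) and Oasl1 in 10 (FDR 0.000257 to 0.153), fewer than Ifi44l. Leaving out a single tumor ended both calls for saline tumor 3 (edgeR FDR = 0.0829 for each), saline tumor 4 (0.134 for Oas2 and 0.153 for Oasl1), and mAb-DXd/IMQ tumors 2 (0.0751 and 0.0833), 3 (0.0740 for each), and 4 (0.116 and 0.115). Oas2 also lost its call without saline tumor 1 (edgeR FDR = 0.0543) and Oasl1 without mAb-DXd/IMQ tumor 1 (edgeR FDR = 0.0719). Both were lost with gene length offsets (0.0504 and 0.0656) and with a replicate block (0.0874 and 0.0831), and Oas2 with robust fitting (0.0565).

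The GBP and IRG families are GTPases known above all as targets of interferon gamma, and here 18 genes were tested. Log2 fold changes were negative for 15 and positive for 3, with a median of -0.26. The split depended on saline tumor 1, without which 9 were negative and 9 positive, the median was -0.03, and the difference in mean log2 CPM turned from -0.17 to 0.06. Without saline tumors 2 and 4 that difference was -0.37 and -0.28, and without saline tumor 3 it was -0.11. In edgeR, DESeq2, and limma-voom 0 of the 18 passed both thresholds, and at an unadjusted p under 0.05 in edgeR, 0 were higher and 2 were lower, beside 9.13% and 9.79% of tested genes. Their mean log2 CPM was 7.48, 6.19, 6.96, and 6.46 in saline tumors and 6.56, 6.65, 6.51, and 6.68 in mAb-DXd/IMQ tumors. Saline tumors 1 and 3 were above all treated tumors and saline tumors 2 and 4 were below them, and each of the 18 genes was highest in saline tumor 1. For the 41 effector genes, by contrast, saline tumor 1 lay at the lower edge of the treated tumors. Whether the families differed from the effector genes in their response was not tested.

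**Figure D5:**
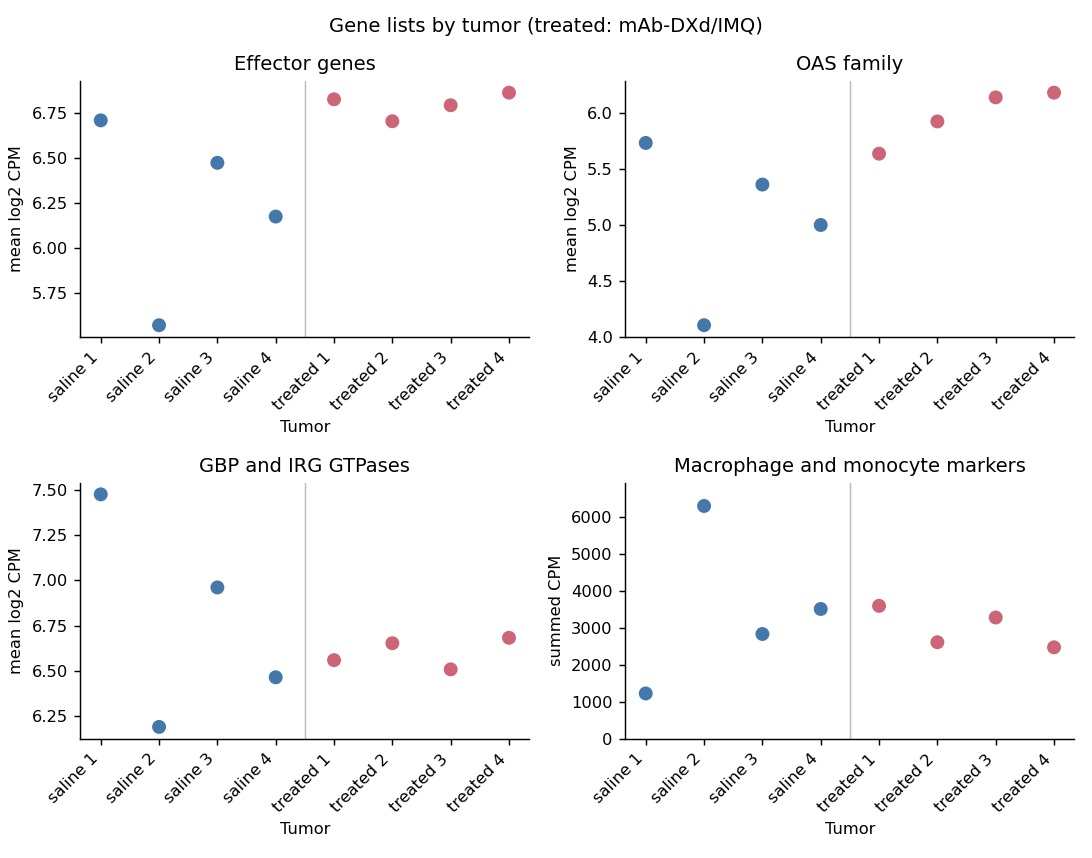
Mean log2 CPM (vertical axis) of the 41 effector genes, the tested genes of the OAS family, and the GBP and IRG GTPases, and summed CPM of the macrophage and monocyte markers, in each tumor (points, by group on the horizontal axis). The effector genes average 5.57 in saline tumor 2 and 6.71 to 6.87 in the treated tumors, whereas the GTPases are highest in saline tumor 1.

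Because these are bulk tumors, fewer cells of a type and less RNA per cell cannot be told apart. Markers of other cells moved between the same tumors. The 10 macrophage and monocyte markers summed to 1219, 6289, 2827, and 3504 CPM in saline tumors and 3588, 2604, 3273, and 2467 CPM in mAb-DXd/IMQ tumors, with Lyz2 the most abundant and none at 0. Saline tumor 2, lowest in effector genes, was highest in this sum, and saline tumor 1, highest of its group in effector genes, was lowest. In edgeR and limma-voom 0 of the 10 passed both thresholds, with 1 higher and 2 lower at an unadjusted p under 0.05 in edgeR, and in DESeq2 1 of them, Mrc1, passed as lower.

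The 6 epithelial markers summed to 2636, 1827, 2572, and 2236 CPM in saline tumors and 3487, 2679, 2144, and 2113 CPM in mAb-DXd/IMQ tumors. The sum was lowest in saline tumor 2, as were Epcam, Krt19, Cdh1, and Krt7, while Krt8 and Krt18, the most abundant of them, were lowest in mAb-DXd/IMQ tumor 4. Epcam, given as an example chosen after values were seen, had 447, 193, 413, and 442 CPM in saline and 702, 607, 295, and 428 CPM in mAb-DXd/IMQ tumors. The 5 endothelial markers, led by Pecam1, summed to 78.3, 183, 130, and 139.9 CPM and 176, 156, 174, and 149 CPM. None of these markers was at 0 in any tumor, and their part in the values of the effector genes was not tested.

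The 9 T-cell markers summed to 71.97, 106, 102, and 94.1 CPM in saline tumors and 54.2, 47.8, 28.1, and 41.04 CPM in mAb-DXd/IMQ tumors, with Cd8a the most abundant and none at 0. All treated sums were below all saline sums, and 3 of 9 markers (Cd4, Cd8a, and Cd2) fell past both thresholds in edgeR, against 7 in DESeq2 and 4 in limma-voom. Of all 18511 tested genes, 96 fell past both thresholds in edgeR. The calls of Cd4 and Cd8a were lost without saline tumor 3 (edgeR FDR = 0.0658 for each), saline tumor 4 (0.0846 for each), or mAb-DXd/IMQ tumor 4 (0.0694 for each), and with a replicate block (0.0695 and 0.0815). That of Cd2 was lost whichever tumor was removed, with edgeR FDR of 0.0518 (without mAb-DXd/IMQ tumor 2) to 0.155 (without saline tumor 4), as well as with library size alone (0.0523) and a replicate block (0.106). The 6 neutrophil markers, led by S100a9, summed to 225, 84.9, 92.4, and 125 CPM and 33, 49.4, 51.4, and 67.2 CPM. Of the 5 tested, 1 (Csf3r) fell past both thresholds in edgeR and in limma-voom, against 3 of 6 in DESeq2, and Ly6g was at 0 in some tumors. The call of Csf3r was kept without mAb-DXd/IMQ tumor 1 (edgeR FDR = 0.0428) and lost without any other tumor, with the highest FDR, 0.134, without saline tumor 4. It was also lost with upper-quartile scaling (edgeR FDR = 0.0501), with library size alone (0.0601), and with a replicate block (0.117). The 5 markers of plasmacytoid dendritic cells, led by Cox6a2, summed to 4.74, 4.02, 6.32, and 9.01 CPM in saline tumors and 3.05, 4.18, 2.40, and 5.14 CPM in mAb-DXd/IMQ tumors, with none at 0. The groups overlapped, and 0 of 5 passed both thresholds in edgeR, DESeq2, or limma-voom, with 0 higher and 1 lower at an unadjusted p under 0.05 in edgeR. The part of these cells in the values of the effector genes was not tested.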

How the data were processed

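Bulk RNA-seq of 8 tumors (4 per group, grouped by sample labels) was analysed. The authors deposited raw counts per gene, without normalization, from poly-A libraries. The submitters' processing notes name HISAT, HISAT2, TopHat2, and mm39, without roles, while the gene coordinates in the table were those of GRCm38 for 53499 of 54409 matched identifiers (98.3%) and 41 of 41 members. The protocol text names both a stranded and a non-stranded library option and does not say which was used.

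Counts were filtered with filterByExpr (minimum count 10, minimum total 15), scaled by TMM, and tested with the quasi-likelihood F-test of edgeR 4.0.16 in R 4.3.3, with Benjamini-Hochberg adjustment over 18511 genes and thresholds of 0.05 for the FDR and 0.58 for the size of the log2 fold change. SE was approximated from the F statistic. In each role, the members with the smallest p, the highest level per length, and the lowest log2 fold change, and any past both thresholds, were described one by one. Lists were averaged as log2 CPM with 0.5 CPM added. The 18 alternatives covered scaling, filters, gene length offsets, DESeq2 1.42.0, limma 3.58.1, robust fitting, a replicate block, and leaving out each tumor, and counts of genes were also made with no fold change limit. Tables and plots used Python 3.11.15, pandas 2.3.3, and matplotlib 3.10.9. The procedure was tested on simulated data, and no duplicated library was found. The members and lists were chosen with earlier results of these data known. Of the genes set beside the members, 2 are not reported here and were taken out of the lists after results were known, so that counts, medians, and means of those lists are without them.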

Additional observations from a re-analysis of the deposited data

Results flagged for a closer look

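In 3 of the 46 groups of 4 values that were checked, a single tumor stood far from the others, measured as its gap to the nearest tumor divided by the range of its group. Chance gives about 1 in 20 such groups, or 2.3 of 46. For Ifi47 in mAb-DXd/IMQ tumors, tumor 1 was above the others with a gap of 0.864 of the range. For Dtx3l and Parp12 in mAb-DXd/IMQ tumors, tumor 3 was above the others, with gaps of 0.889 and 0.854 of the range. Rsad2, described in addition and not among the 46, had mAb-DXd/IMQ tumor 4 above the others with a gap of 0.959 of the range.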

How the results depend on the processing

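The median log2 fold change of the members, 0.48, lay between 0.30 (without saline tumor 2) and 0.58 (without saline tumor 1) with each tumor left out. Genes past both thresholds numbered 197, but 218 with upper-quartile scaling, 194 with library size alone, and 358 without the filter on low counts. They numbered 233 with a minimum of 1 CPM in 4 tumors, 810 in DESeq2, and 246 without the fold change limit. With gene length offsets there were 122, and with each tumor left out there were 10 to 203. Members past both thresholds numbered 1, but 3 with upper-quartile scaling, 2 with library size alone, 4 without the filter, 2 with a minimum of 1 CPM in 4 tumors, 7 in DESeq2, 2 without the fold change limit, and 0 to 3 with each tumor left out. Members separated as higher numbered 12, but 7 with gene length offsets and 11 to 26 with each tumor left out. Of all tested genes, 5.97% were so separated with 8 tumors. With a tumor left out, this share was 7.34% (without saline tumor 4) to 10.2% (without mAb-DXd/IMQ tumor 1). None is given for gene length offsets. The cause of these differences was not tested.

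The log2 fold change of Ifi47 turned to 0.012 with upper-quartile scaling and lay between -0.15 and 0.051 with each tumor left out. In the same fits Isg20 lay between -0.025 and 0.35, Epsti1 between -0.047 and 0.35, and Ifi203 between -0.067 and 0.12. Ifi203 turned to -0.0020 in DESeq2, -0.067, -0.011, and -0.0049 without saline tumors 2, 3, and 4, and -0.032 without mAb-DXd/IMQ tumor 2. Of 396 values for the 22 members described one by one, 375 kept their direction and did or did not pass both thresholds together as before, 10 changed sign, 8 passed both newly, and 3 no longer passed both. The FDR threshold alone was crossed more often, as by Lgals3bp, which met it in 9 of 18 alternatives. Of the other members only Parp10 changed sign, to -0.042 without saline tumor 2 and -0.0028 without mAb-DXd/IMQ tumor 3.

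Tumors that share a replicate number come from different mice, so the numbers do not pair the tumors. Deviations from group means correlated between same-numbered tumors at -0.170, -0.055, 0.079, and -0.067 across genes, which are not independent replicates. Only saline tumor 3 correlated more with the treated tumor of its own number than with any other treated tumor. Whether a number stands for a shared batch was not tested. With a replicate block, 14 genes and 0 members passed.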

Other observations

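Other cell markers and drug targets gave the following values in the same tumors. The 5 NK-cell markers, led by Klrk1, summed to 19.5, 23.4, 28.8, and 33.95 CPM in saline tumors and 26.03, 28.3, 26.8, and 28.9 CPM in mAb-DXd/IMQ tumors, with overlapping groups, and single markers differed in direction: Eomes had a log2 fold change of 0.89 with groups that did not overlap (edgeR FDR = 0.0885) and passed both thresholds in DESeq2, while Klrk1 had -0.47 (edgeR FDR = 0.245). The 4 markers of conventional dendritic cells, led by Zbtb46, summed to 18.02, 34.96, 22, and 27.1 CPM and 16.2, 16.1, 19.8, and 18.6 CPM, with the highest sum in saline tumor 2. This sum mostly reflects Zbtb46 (log2 fold change -0.25, edgeR FDR = 0.351), while Xcr1, Clec9a, and Flt3 had -1.17, -1.53, and -1.03 (edgeR FDR = 0.226, 0.194, and 0.211), and 0 of 4 passed both thresholds in edgeR, DESeq2, or limma-voom, with 0 higher and 3 lower at an unadjusted p under 0.05 in edgeR. The 6 fibroblast markers, led by Col1a1, summed to 2795, 3786, 6610, and 7061 CPM and 5484, 4219, 7501, and 2818 CPM, with overlapping groups. Pdgfra, 1 of the less abundant among them, had all treated tumors below all saline tumors (log2 fold change -0.48, edgeR FDR = 0.0679), and 0 of 6 passed both thresholds in edgeR, DESeq2, or limma-voom, with 0 higher and 1 lower at an unadjusted p under 0.05 in edgeR. The 4 B-cell markers, led by Cd79b, summed to 1.18, 2.30, 1.18, and 2.78 CPM and 1.14, 0.942, 0.786, and 0.899 CPM, and Ms4a1 was at 0 in some tumors. Cd79b had a log2 fold change of -1.53 (edgeR FDR = 0.129) with all treated tumors below all saline tumors, and passed both thresholds as lower in DESeq2. Of the targets of the treatment, Cd276 had a log2 fold change of 0.35 (SE 0.14, edgeR FDR = 0.214) and Top1 of -0.20 (SE 0.11, edgeR FDR = 0.361). Single treated tumors carried much of both. Cd276 had 161.9 CPM in mAb-DXd/IMQ tumor 3, against 102.4 to 128.5 CPM in the other treated tumors. Top1 had 68.3 CPM in mAb-DXd/IMQ tumor 4, against 82.8 to 89.9 CPM in the other treated tumors. The saline means were 99.15 and 94.4 CPM.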
